A study of Mus musculus with 9 samples.

Results

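The FoxO transcription factors were described here across 9 Affymetrix GeneChip arrays of mouse tibialis anterior muscle. The family has 4 genes in the mouse, Foxo1, Foxo3, Foxo4 and Foxo6. Every probe set whose platform annotation gave exactly 1 symbol, and that symbol a family member, was taken. This gave 9 probe sets for 3 genes, 4 for Foxo1, 3 for Foxo3 and 2 for Foxo4, among 18193 genes with such a probe set on the array. No probe set was annotated to Foxo6, so that gene was not analysed here. All 9 probe sets passed the minimum signal, a mean of 50 or more in at least 1 group. Only the DEX-injected groups carried the dim Foxo1 probe set 1456529_at over that minimum.

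The mice were 15-week-old male C57BL/6J animals on an AIN93-based diet, with 1 array per mouse and 3 mice per group. Control mice were injected with 0.9% saline. Mice of the DEX group were given dexamethasone (DEX), a synthetic glucocorticoid, at 5 mg/kg by intraperitoneal injection daily for 7 d. Those of the DEX + TE group received the same injections and a diet with 2% turmeric extract (TE), which per the protocol began 5 d before the first injection, while the sample titles place the extract after DEX. No group received TE without DEX, so TE could only be compared on top of DEX. Mice with body and muscle weights near the average had been selected for the arrays, so the spread between arrays may be narrower than that between all mice.

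FoxO proteins bind DNA through a forkhead domain and switch on genes of protein breakdown, autophagy, cell cycle arrest and fasting metabolism. Insulin and IGF-1 act through PI3 kinase and Akt, which phosphorylates FoxO proteins and keeps them out of the nucleus, so that the location of the protein, and not the amount of its mRNA alone, sets FoxO activity. In skeletal muscle the family is known for switching on Fbxo32 (atrogin-1) and Trim63 (MuRF1), the ubiquitin ligases of muscle atrophy. Glucocorticoids act through their own receptor on many of the same genes. The arrays measured mRNA only, and the phosphorylation or location of FoxO proteins was not measured on them.

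The DNA letters that FoxO proteins recognise are shown first, because the target genes below were chosen for their regulation by these factors. Promoter windows of 300 bases, from 250 bases before to 50 bases after the annotated start, were taken from RefSeq (GRCm38.p6). The motif GTAAACA, read on both strands, was found in 3.65% of 32851 windows. Of 58 FoxO target symbols, 44 had a window, and 7 of these (15.9%) held the motif. Fbxo32 had no window, so its promoter was not read. The 7 stretches follow 5′ to 3′ on the strand of the gene, with the motif in capitals and up to 10 bases on each side.
Trim63, chr4:134314916-134314942: agtctgttctTGTTTACgacccccacg
Bbc3, chr7:16310084-16310110: ctggcgggttTGTTTACaaacaatggg
Bcl2l11, chr2:128125801-128125827: agacactaggGTAAACAcgccggggtg
Txnip, chr3:96557826-96557852: tggaggcctgGTAAACAagggccaagt
Selenop, chr15:3270943-3270969: agagggcgagGTAAACAacagggctat
Sesn1, chr10:41810586-41810612: aaccttctacTGTTTACcagccttttg
Adipor1, chr1:134415690-134415713: aaggtcctccGTAAACAtttccgg

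All 7 lie on the forward strand of their chromosomes. Trim63, Bbc3 and Sesn1 carried the motif as its reverse complement, and the other 4 carried it as written. In Trim63 the motif began 194 bases before the start and followed directly on TGTTCT, the reverse complement of AGAACA, a single arm of the palindrome that the glucocorticoid receptor binds. AGAACA was found in 18.97% of all windows and together with GTAAACA in 0.88%. In this order and orientation, the run of both motifs with no base between them occurred in 1 window of 32851. That window was the Trim63 window from which the order was taken, so nothing is read from the count. Runs in other orders or orientations were not counted. The window of Trim63, with both motifs in capitals, shows their place within the promoter.
Trim63, chr4:134314870-134315169, plus strand: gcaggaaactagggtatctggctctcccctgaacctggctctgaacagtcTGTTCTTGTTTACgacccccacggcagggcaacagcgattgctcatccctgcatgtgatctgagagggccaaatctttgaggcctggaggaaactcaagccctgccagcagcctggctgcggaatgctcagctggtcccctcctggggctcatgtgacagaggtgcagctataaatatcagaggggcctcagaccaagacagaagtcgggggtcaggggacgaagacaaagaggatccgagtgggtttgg
The windows of Foxo1 (chr3:52268087-52268386, plus strand) and Foxo3 (chr10:42276646-42276945, minus strand) held neither motif. A match is a description of the letters in the window and does not show that a factor binds there.

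Each deposited value was a linear signal, scaled so that every array had the same trimmed mean, and differences were tested on the log2 scale with limma. Calls required an adjusted p (Benjamini-Hochberg over 29269 probe sets) under 0.05 and a log2 fold change of 0.6 or more in either direction. The median signal of the arrays was 76 to 86.2 (control), 71.3 to 77.7 (DEX) and 84.7 to 95 (DEX + TE). Fkbp5, a glucocorticoid receptor target, rose in the DEX group with a log2 fold change of 2.26 ± 0.24 (SE, adjusted p = 0.0134), while 14 of the 18 targets tested were lower by value and 2 of them fell, as counted below. The fast fiber genes, markers of the tissue labelled, were bright on all arrays. Their summed signal over 9 of 9 genes was 511200 to 718100 (control), 396800 to 503600 (DEX) and 492500 to 534700 (DEX + TE). The summed signal of 9 of 9 fibroblast genes was 36180 to 55400, 19430 to 23350 and 30150 to 31960 in the same order. That of 9 of 10 leukocyte symbols was 1968 to 3395, 1112 to 1494 and 1953 to 2044. No defining marker of the fast fiber or fibroblast list was below a signal of 50 on every array, and Cd3e of the leukocyte list was. These cell type markers moved with the groups, and their part in the FoxO values was not tested. In whole muscle, fewer cells of a type and less RNA per cell cannot be told apart.

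None of the 9 FoxO probe sets was called in any comparison. Between DEX and control, limma called 0 of 9 (adjusted p = 0.314 to 0.908), against 0.502% of all probe sets, and Rank Product, the second test, called 0 of 9 against 0.219%. With an unadjusted p below 0.05, 1 of 9 was higher and 0 were lower, where 6.1% of all probe sets were higher and 8.33% lower. The 1 was Foxo1 1456529_at, which passed the minimum signal only through the DEX-injected groups and so had to differ, and nothing is read from its p. In 1 of 9 (Foxo4 1456753_at) all DEX arrays lay above all control arrays and in 0 below, where 9.07% of all probe sets lay above and 12.1% below.

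Between DEX + TE and DEX, limma called 0 of 9 FoxO probe sets (adjusted p = 0.562 to 0.988), against 0.0137% of all, and Rank Product called 0 of 9 against 0.123%. With an unadjusted p below 0.05, 0 were higher and 1 of 9 was lower (Foxo4 1456753_at), where 6.2% of all probe sets were higher and 1.56% lower. In 0 of 9 all DEX + TE arrays lay above all DEX arrays and in 2 of 9 below (Foxo4 1456753_at and Foxo3 1434832_at), where 10.1% of all probe sets lay above and 4.75% below.

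Between DEX + TE and control, limma called 0 of 9 (adjusted p = 0.204 to 0.933), against 0.379% of all, and Rank Product called 0 of 9 against 0.441%. With an unadjusted p below 0.05, 1 of 9 was higher (Foxo1 1456529_at) and 1 was lower (Foxo1 1416982_at), where 7.95% of all were higher and 5.84% lower. In 1 of 9 all DEX + TE arrays lay above all control arrays (Foxo1 1456529_at) and in 3 of 9 below (Foxo1 1416981_at, Foxo1 1416982_at and Foxo3 1434832_at), where 12.4% and 10.3% of all probe sets did so. Here too Foxo1 1456529_at supports nothing. The 3 comparisons share arrays and are not independent. The exact permutation test of 3 against 3 arrays cannot go below p = 0.1, so it could not reach 0.05 for a single probe set.

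**Figure D1:**
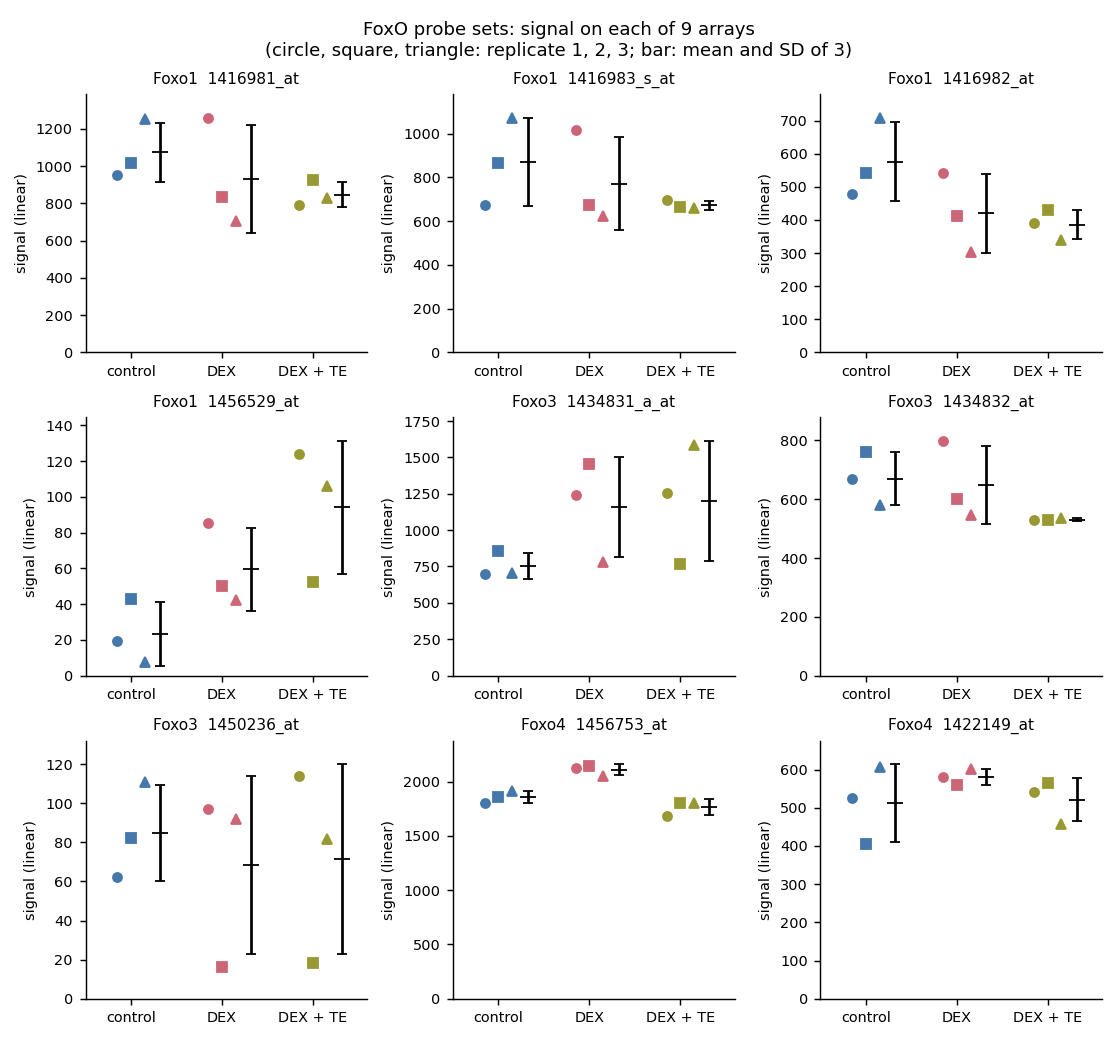
Linear signal (y axis, from 0) of each of the 9 FoxO probe sets on each array, by group (x axis), with circle, square and triangle for replicate 1, 2 and 3 and a bar for the mean and SD of 3 arrays. The 3 DEX arrays of Foxo4 1456753_at, at 2050 to 2148, lie above the other 6, and in 4 of the other 8 probe sets every pair of groups overlaps.

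Foxo1, the member best known as the effector of insulin signaling, had 3 bright probe sets and 1 dim one. The signal of the brightest, 1416981_at, was 952, 1017 and 1252 in control mice, 1259, 832 and 703 in DEX mice and 791, 924 and 826 in DEX + TE mice. The DEX group was spread most, since its replicate 1 was the highest of all 9 arrays and its replicate 3 the lowest. The control group had the highest mean (1074 ± 158, SD, n = 3), followed by the DEX group (932 ± 291) and the DEX + TE group (847 ± 68.9), and only the control and DEX + TE arrays did not overlap. DEX against control gave a log2 fold change of -0.24 ± 0.22 (SE), with a 95% interval of 0.591 to 1.21 in fold. It was -0.10 ± 0.22 for DEX + TE against DEX (0.653 to 1.34 in fold). Without DEX replicate 1 the first became -0.48 and the second turned to 0.14.

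In the other bright Foxo1 probe sets the DEX arrays overlapped the controls. For 1416983_s_at the signal was 671, 865 and 1072 in control mice, 1014, 671 and 625 in DEX mice and 696, 665 and 658 in DEX + TE mice. For 1416982_at it was 479, 541 and 709, then 543, 412 and 304, then 391, 429 and 339. In both, DEX replicate 1 was the second highest of the 9 arrays and DEX replicate 3 the lowest. The lowest unadjusted p among the bright probe sets was that of 1416982_at for DEX + TE against control, with a log2 fold change of -0.57 ± 0.24 (fold 0.676, 95% interval 0.458 to 0.997, limma adjusted p = 0.361). All DEX + TE arrays lay below all control arrays in this probe set.

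The dim Foxo1 probe set 1456529_at is given by its values alone. Its signal was 19.2, 42.8 and 7.68 in control mice, 85.5, 50.3 and 42.3 in DEX mice and 124, 52.4 and 106 in DEX + TE mice. All control arrays were below 50, the minimum signal used, so the fold was taken against that minimum and was at least 1.13-fold higher in the DEX group and at least 1.77-fold higher in the DEX + TE group. Neither difference was called (limma adjusted p = 0.314 and 0.204). Since a probe set that passed only through the groups where it was high had to differ, no direction for Foxo1 is read from it.

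Foxo3, the member that can drive autophagy and proteasomal breakdown in muscle when active, had 2 bright probe sets that moved unlike each other. The signal of 1434831_a_at was 700, 853 and 708 in control mice, 1242, 1458 and 781 in DEX mice and 1254, 764 and 1584 in DEX + TE mice. Both DEX-injected groups thus held 2 high arrays and 1 array within the control range. The means were 753 ± 86.4, 1160 ± 346 and 1201 ± 413 (SD, n = 3), and all 3 groups overlapped. DEX against control gave a log2 fold change of 0.58 ± 0.32 (fold 1.5, 95% interval 0.894 to 2.5, limma adjusted p = 0.455) and 0.62 ± 0.32 for DEX + TE against control (fold 1.53, 0.915 to 2.57, adjusted p = 0.438). For DEX + TE against DEX it was 0.03 ± 0.32 (fold 1.02, 0.612 to 1.71).

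The second bright Foxo3 probe set, 1434832_at, did not show this. Its signal was 668, 762 and 581 in control mice, 798, 602 and 548 in DEX mice and 529, 528 and 535 in DEX + TE mice. The DEX + TE arrays were nearly identical and lay below the other 6. For DEX against control the log2 fold change was -0.06 ± 0.17 (fold 0.962, 95% interval 0.736 to 1.26), a sign that turned to 0.05 when the arrays were centred on their medians. For DEX + TE against DEX it was -0.27 ± 0.17 (fold 0.828, 0.634 to 1.08, limma adjusted p = 0.734). The narrow spread of the DEX + TE group was not used alone, since limma pooled the spread of all 3 groups.

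The third Foxo3 probe set, 1450236_at, was dim and swung between arrays. Its signal was 62.0, 82.2 and 111 in control mice, 97.1, 16.1 and 92.1 in DEX mice and 114, 18.4 and 82.0 in DEX + TE mice. Replicate 2 of each DEX-injected group was below 20, and the other arrays reached 50. Its 95% interval for DEX against control ran from 0.152 to 2.64 in fold, a range that spans changes of either sign. A further probe set, 1444226_at, is annotated to Foxo3 together with Gm38485 and was left out. It did not reach the minimum and read 4.08, 5.86 and 14.5 in control mice, 12.5, 11.5 and 19.5 in DEX mice and 88.2, 12.7 and 71.0 in DEX + TE mice.

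Foxo4, the X-linked member, had a probe set with the narrowest intervals of the 9. The signal of this probe set, 1456753_at, was 1799, 1856 and 1916 in control mice, 2129, 2148 and 2050 in DEX mice and 1685, 1807 and 1806 in DEX + TE mice. The DEX group stood highest on every array (2109 ± 52.0, SD, n = 3), above the control group (1857 ± 58.8) and the DEX + TE group (1766 ± 70.2), whose arrays overlapped each other. Between DEX and control the log2 fold change was 0.18 ± 0.09 (fold 1.14, 95% interval 0.988 to 1.31, limma adjusted p = 0.386). For DEX + TE against DEX it was -0.26 ± 0.09 (fold 0.837, 0.728 to 0.962, limma adjusted p = 0.562). Both differences were under the fold required for a call, and neither passed the adjustment.

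The other Foxo4 probe set, 1422149_at, was spread more in the control group. Its signal was 525, 406 and 607 there, 580, 559 and 601 in the DEX group and 542, 564 and 458 in the DEX + TE group. The groups overlapped in every comparison. Fitted log2 fold changes were 0.20 ± 0.16 for DEX against control and -0.16 ± 0.16 for DEX + TE against DEX, with 95% intervals of 0.879 to 1.49 and 0.687 to 1.17 in fold. Both Foxo4 probe sets had the same sign in these comparisons.

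**Figure D2:**
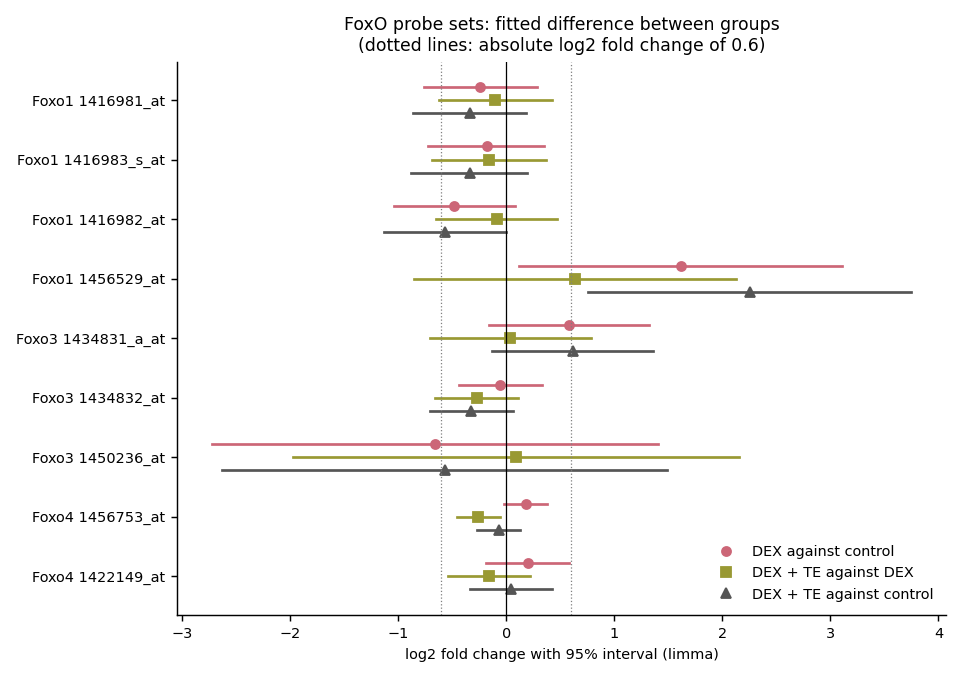
Fitted log2 fold change (x axis) with its 95% interval from limma for each of the 9 FoxO probe sets (y axis) in the 3 comparisons, marked by colour and symbol, with dotted lines at 0.6 and -0.6. The intervals of Foxo4 1456753_at are the narrowest and those of Foxo3 1450236_at the widest, from -2.72 to 1.4 for DEX against control.

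The precision differed between probe sets. The 95% interval of the log2 fold change reached 0.20 to either side for the tightest probe set and 2.06 for the widest. In 5 of 9 probe sets the interval for DEX against control lay within a doubling or halving in either direction, in 7 of 9 for DEX + TE against DEX and in 5 of 9 for DEX + TE against control. The interval left out 0 in 1, 1 and 2 probe sets in the same order. The counts for both comparisons with control include Foxo1 1456529_at. It passed the minimum signal only through the DEX-injected groups, so nothing is read from its intervals.

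Family members were also set against each other on the same array, which removes the scaling of the array. The log2 difference of Foxo1 1416981_at minus Foxo3 1434831_a_at was lower by 0.82 in the DEX group than in the control group, and no DEX array overlapped a control array (exact permutation test, two-sided, p = 0.1, adjusted over 9 contrasts 0.45). None of the 9 contrasts passed an adjusted p of 0.05, which 3 against 3 arrays could not reach. The contrast of Foxo1 minus Foxo3 rests on the brightest probe set of each gene. The bright Foxo3 probe sets differed, with log2 fold changes of 0.58 (1434831_a_at) and -0.06 (1434832_at) for DEX against control. With the mean of all probe sets in place of the brightest, every contrast overlapped. Foxo1 minus Foxo3 became 0.22 for DEX against control, and the limits of these means are given below.

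The genes whose pattern over the 9 arrays was nearest to each member were found by the root mean square (RMS) difference of mean-centred log2 signal. For Foxo1 1416981_at these were Serpini1 (RMS difference 0.108), Depdc7 (0.116) and Myf6 (0.118), a myogenic transcription factor. For Foxo3 1434831_a_at they were Snx22 (0.214), Plekhf2 (0.219) and Rbmx (0.228), farther off than for the other members, with 0 of 13690 genes within 0.2. For Foxo4 1456753_at they were Dcaf5 (0.044), Card19 (0.051) and Stau2 (0.053), and 4102 genes lay within 0.2, since its signal varied little. This is a description over 9 arrays with no test.

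The pathway that holds FoxO in check was examined next. Of 24 genes of the insulin and IGF-1 pathway upstream of FoxO, 22 were tested. In DEX against control 0 rose and 1 fell, and the median log2 fold change was 0.07, beside -0.03 over all 13691 genes. The gene that fell was Sgk1, a kinase related to Akt that also phosphorylates FoxO proteins and is a glucocorticoid receptor target. Its signal was 31170, 27380 and 31340 in control mice, 19470, 17380 and 17810 in DEX mice and 20680, 20040 and 22320 in DEX + TE mice. The DEX and DEX + TE arrays all lay below the control arrays. Its log2 fold change was -0.72 ± 0.10 for DEX against control (limma adjusted p = 0.0416) and -0.51 ± 0.10 for DEX + TE against control (adjusted p = 0.112). The call of Sgk1 was lost without any 1 of the 9 arrays, with either other scaling, with no filter, with the replicate block and in a fit to 6 arrays. Over all 13691 genes limma called 38 higher and 44 lower in DEX against control. It called 0 and 1 in DEX + TE against DEX, and 38 and 24 in DEX + TE against control. No member of the list was called in DEX + TE against DEX or in DEX + TE against control. At an unadjusted p below 0.05, 1 (4.55%) was higher and 2 (9.09%) lower in DEX against control, beside 6.16% and 9.14% of all genes. In DEX + TE against DEX it was 2 (9.09%) and 0, beside 5.97% and 1.49%, and in DEX + TE against control 2 (9.09%) and 1 (4.55%), beside 7.69% and 6.76%.

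Igf1, the growth factor at the head of the pathway, had a signal of 1026, 1292 and 1198 in control mice, 737, 762 and 659 in DEX mice and 1461, 1491 and 886 in DEX + TE mice. The DEX arrays lay below all others. In log2, the difference was -0.70 ± 0.21 for DEX against control (limma adjusted p = 0.207) and 0.79 ± 0.21 for DEX + TE against DEX (adjusted p = 0.473), neither of which passed the test. A second Igf1 probe set gave -0.86 and 0.75. In the other 2 the DEX arrays overlapped the controls, with -0.05 and 0.37 in one and -0.49 and 1.04 in the other. Fibroblast markers, given above, were also lowest in DEX mice, and their part in the Igf1 values was not tested. Irs2, an insulin receptor substrate that is itself a FoxO target, read 708, 583 and 580, then 587, 3120 and 2002, then 762, 1366 and 1760, so that 1 DEX array stayed at the control level. Pik3r1, the regulatory subunit of PI3 kinase, read 1395, 2160 and 2079 in control mice but 13160, 2368 and 2146 in DEX mice. The high value of DEX replicate 1 was present in all 4 Pik3r1 probe sets, and that array also gave the highest signal of Foxo1 1416981_at and Foxo3 1434832_at.

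**Figure D3:**
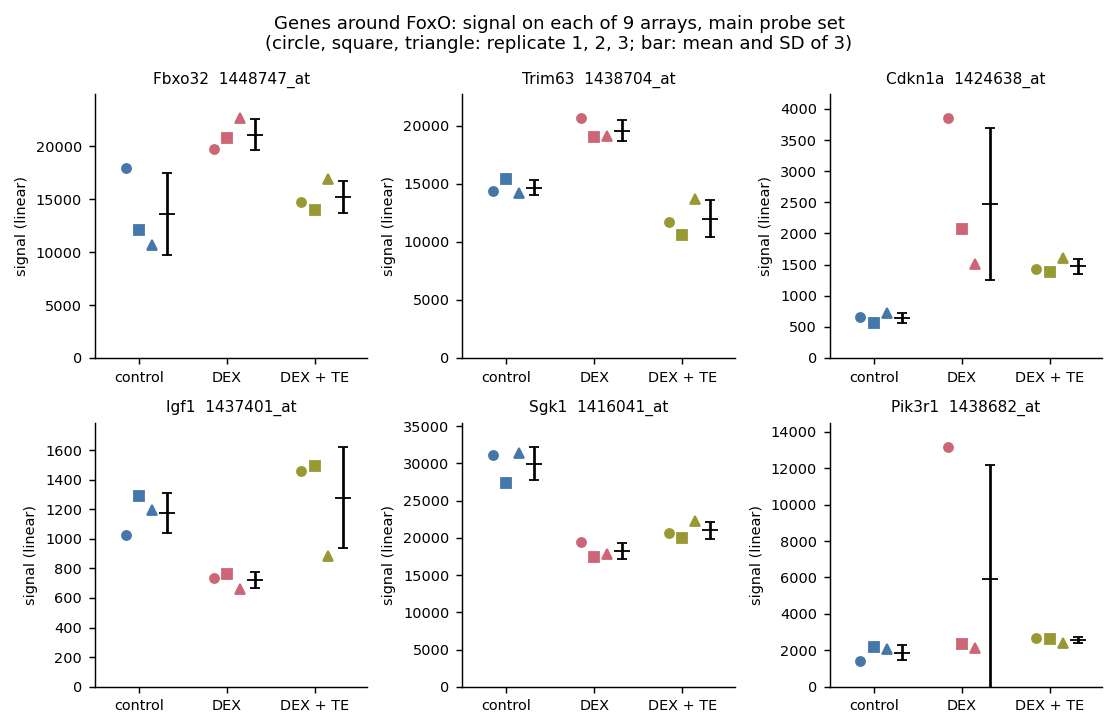
Linear signal (y axis, from 0) of the main probe sets of Fbxo32, Trim63, Cdkn1a, Igf1, Sgk1 and Pik3r1 on each array, by group (x axis), with circle, square and triangle for replicate 1, 2 and 3 and a bar for the mean and SD of 3 arrays, cut at 0 for Pik3r1. Trim63 reads 19050 to 20650 in DEX mice and 14220 to 15440 in control mice, and DEX replicate 1 stands alone for Pik3r1.

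Of 34 genes that modify FoxO proteins or bind them, 33 were tested. None was called in DEX against control or in DEX + TE against DEX. In DEX + TE against control 1 of the 33 fell, beside 24 of all 13691 genes. Counted at an unadjusted p below 0.05, 1 (3.03%) was higher and 3 (9.09%) lower in DEX against control, 1 and 1 (3.03% each) in DEX + TE against DEX, and 1 (3.03%) and 4 (12.1%) in DEX + TE against control. The shares over all genes were 6.16% and 9.14%, 5.97% and 1.49%, and 7.69% and 6.76%. The gene that fell was Sirt3, a mitochondrial deacetylase reported to act on FoxO3. The signal of Sirt3 was 770, 801 and 808 in control mice, 612, 529 and 635 in DEX mice and 452, 476 and 472 in DEX + TE mice, so the 3 groups did not overlap. Sirt3 had a log2 fold change of -0.76 ± 0.10 for DEX + TE against control (limma adjusted p = 0.0373), -0.43 ± 0.10 for DEX against control (0.13) and -0.34 ± 0.10 for DEX + TE against DEX (0.515). The call of Sirt3 was lost without any 1 of the 9 arrays, with no filter, with the replicate block and in a fit to 6 arrays. Prkaa1, a catalytic subunit of AMPK, which phosphorylates FoxO3, had a log2 fold change of 0.41 ± 0.15 for DEX against control (0.282). Xpo1, the exportin that carries phosphorylated FoxO out of the nucleus, had -0.38 ± 0.12 (0.208). Neither passed the test.

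Genes that FoxO proteins are known to regulate, most of them upward, were counted in 3 lists, with 50 of 58 symbols tested. By their main probe sets, limma called 0 of 50 in each comparison. Of all 13691 genes it called 38 higher and 44 lower in DEX against control. In DEX + TE against DEX it called 0 and 1, and in DEX + TE against control 38 and 24. With an unadjusted p below 0.05, 12 of 50 (24.0%) were higher and 3 (6.0%) lower in DEX against control, beside 6.16% and 9.14% of all genes. In DEX + TE against DEX 0 were higher and 5 (10%) lower, beside 5.97% and 1.49%. In DEX + TE against control 7 (14.0%) were higher and 9 (18.0%) lower, beside 7.69% and 6.76%. The counts higher than control include Pck1, which passed the minimum signal only through the DEX-injected groups. Those higher in DEX against control also include Fbxo32, Eif4ebp1, Cdkn1a and Bcl2l11. These are in the study's FoxO3 category, described below, which was drawn from these same samples. All gene lists here were chosen with earlier results of these data known. The shares are therefore not independent evidence. The median log2 fold change of the 50 genes was 0.10, -0.11 and 0.02 in this order, beside -0.03, 0.04 and 0.02 over all genes. Among all 122 probe sets of these genes limma called 1, a second one of Cdkn1a that was higher in DEX against control, and Rank Product called 0 in each comparison. With a mean-variance trend in the fit, limma called 5, 1 and 4 of the genes.

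**Figure D4:**
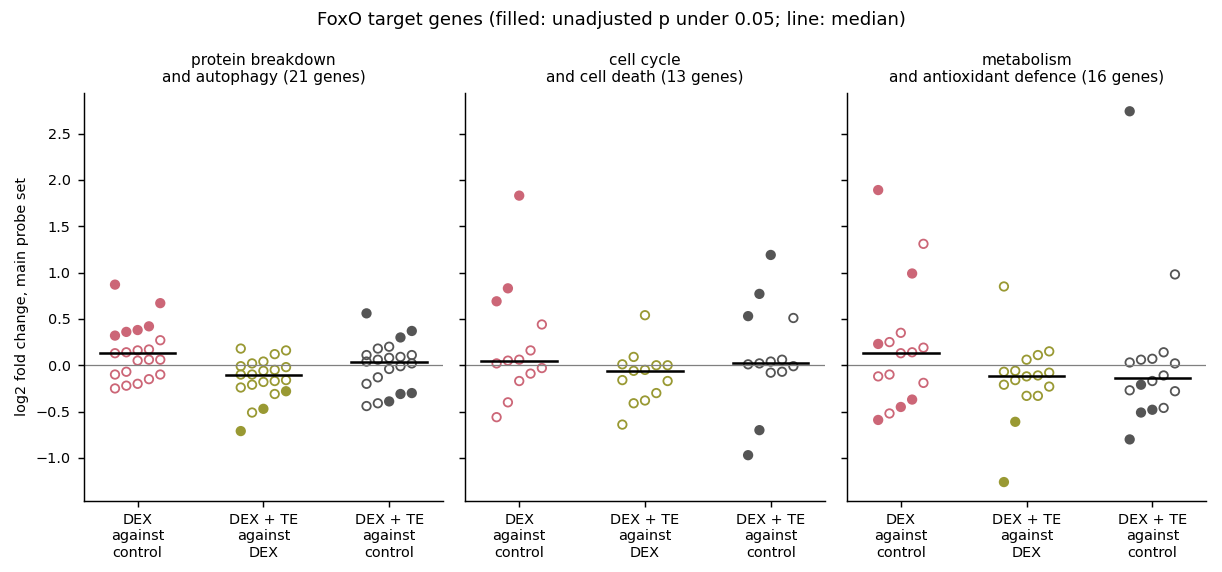
Log2 fold change of the main probe set (y axis) of each tested FoxO target gene in the 3 comparisons (x axis), in 3 lists of 21, 13 and 16 genes, with filled points for an unadjusted p under 0.05 and a line at the median. In DEX + TE against DEX 38 of the 50 points lie below 0 and 12 (24%) above, where 57.4% of all genes were higher by value.

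The 21 tested targets of protein breakdown and autophagy included the 2 ubiquitin ligases of muscle atrophy. Fbxo32 had a signal of 18000, 12060 and 10690 in control mice, 19780, 20850 and 22670 in DEX mice and 14790, 14000 and 16880 in DEX + TE mice. All DEX arrays lay above the other 6. The log2 fold change was 0.67 ± 0.20 for DEX against control (limma adjusted p = 0.193) and -0.47 ± 0.20 for DEX + TE against DEX (0.636). The other 2 Fbxo32 probe sets gave 0.73 and 0.85 for DEX against control and -0.75 and -0.91 for DEX + TE against DEX. The call was not reached in the fit used here, and was reached for DEX against control with a mean-variance trend (adjusted p = 0.0268).

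Trim63, whose promoter window is shown above, had 1 probe set. Its signal was 14360, 15440 and 14220 in control mice, 20650, 19050 and 19080 in DEX mice and 11740, 10570 and 13730 in DEX + TE mice, so the 3 groups did not overlap and the DEX + TE group was the lowest. The log2 fold change was 0.42 ± 0.12 for DEX against control (fold 1.34, limma adjusted p = 0.183), -0.71 ± 0.12 for DEX + TE against DEX (fold 0.61, adjusted p = 0.218) and -0.30 ± 0.12 for DEX + TE against control (adjusted p = 0.337). The second of these reached a call with a mean-variance trend (adjusted p = 0.0223).

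Eif4ebp1, an inhibitor of cap-dependent translation, read 4601, 3626 and 4024, then 8778, 7242 and 6436, then 5422, 6614 and 6029. Both DEX-injected groups lay above the control group. Its log2 fold change for DEX against control was 0.87 ± 0.16 (limma adjusted p = 0.0699). Tfeb, a transcription factor of lysosome and autophagy genes, had 0.38 ± 0.11 (0.188). Sesn1, a stress-induced inhibitor of mTORC1 signaling whose window held the FoxO motif, had -0.51 ± 0.23 for DEX + TE against DEX (0.667).

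Of the 13 tested targets of cell cycle and cell death, 3 were higher and 0 lower with an unadjusted p below 0.05 in DEX against control. Cdkn1a, the cell cycle inhibitor p21, had a signal of 652, 559 and 725 in control mice, 3850, 2071 and 1503 in DEX mice and 1422, 1376 and 1611 in DEX + TE mice. All arrays of both DEX-injected groups lay above the control arrays. The log2 fold change for DEX against control was 1.83 ± 0.32 in this probe set (limma adjusted p = 0.0636) and 2.14 ± 0.27 in the second, 1421679_a_at (adjusted p = 0.031), which was called. In DEX + TE against control it was 1.19 ± 0.32 (adjusted p = 0.184). Bcl2l11 (Bim) and Bbc3 (Puma), promoters of apoptosis that both carried GTAAACA in their windows, had log2 fold changes of 0.83 ± 0.21 and 0.69 ± 0.14 for DEX against control (adjusted p = 0.153 and 0.0941). In both main probe sets, the DEX arrays lay above the control arrays. Other Bcl2l11 probe sets gave 0.88 and 0.74 without overlap, and 1.65 and -0.45 with overlap. The control mean of the probe set at 1.65 was 48.05, below the minimum. It passed only through the DEX-injected groups and had to differ, so nothing is read from its 1.65. The probe set at -0.45 was dim and swung between the DEX arrays, at 13.1, 63.3 and 118. For DEX + TE against DEX the main values of Bcl2l11 and Bbc3 were -0.06 and -0.16. The other Bcl2l11 probe sets gave -0.03, -0.1, 0.12 and 1.11 there, all with overlap. Ccnd1, a cyclin that FoxO proteins repress, had -0.97 ± 0.30 for DEX + TE against control (adjusted p = 0.231). Of the other genes whose windows held GTAAACA, Selenop had -0.37 ± 0.09 for DEX against control (limma adjusted p = 0.124). Txnip had 0.35 ± 0.18, Adipor1 0.14 ± 0.09 and Sesn1 0.06 ± 0.23 there (0.418, 0.535 and 0.929), and Trim63 is given above. The DEX arrays all lay below the controls in Selenop, all above in Txnip and Adipor1, and overlapped in Sesn1. A link between the motif and these values was not tested.

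Of the 16 tested targets of metabolism and antioxidant defence, 3 were higher and 3 lower with an unadjusted p below 0.05 in DEX against control. Pck1, an enzyme of gluconeogenesis and, in fat cells, of glyceride synthesis, read 18.7, 26.4 and 63.4 in control mice, 81.3, 163 and 120 in DEX mice and 209, 181 and 245 in DEX + TE mice. The control mean, 36.2, was below the minimum, so that this probe set passed only through the groups where it was high and had to differ. It was not called (limma adjusted p = 0.134 for DEX and 0.0682 for DEX + TE against control). The other Pck1 probe set was below 50 on every control array, at least 1.36-fold higher in the DEX group and at least 1.49-fold higher in the DEX + TE group, and the arrays of these groups overlapped. Adipoq, a fat cell marker, ran in the same order, at 268 to 441 in control mice, 721 to 905 in DEX mice and 1165 to 2050 in DEX + TE mice. The part of fat cells in the Pck1 signal was not tested. The summed signal of 6 of 8 fat cell markers was 23760 to 27910, 20780 to 23930 and 23440 to 25820, with none below 50 on every array. Most of this sum was Fabp4, which had a log2 fold change of -0.40 for DEX and -0.21 for DEX + TE against control. The other 5 were higher by value in both comparisons. The median of the 6 was 0.81 and 1.5, beside -0.03 and 0.02 over all genes. Limma called 0 and 2 of the 6 higher (Adipoq and Retn), beside 38 and 38 of all 13691 genes.

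Pdk4, which blocks the entry of pyruvate into the mitochondrial cycle and is a target of FoxO and of the glucocorticoid receptor, read 14650, 19490 and 22830, then 16040, 14670 and 18560, then 11040, 9181 and 12150. The DEX + TE arrays lay below the other 6, and the log2 fold change for DEX + TE against DEX was -0.61 ± 0.19 (limma adjusted p = 0.545). Angptl4, an inhibitor of lipoprotein lipase, had -1.26 ± 0.40 in the same comparison (0.542). Lipoprotein lipase itself, Lpl, had -0.59 ± 0.10 for DEX against control (0.0685), and its other probe set had -0.57. Sod2, the mitochondrial superoxide dismutase, had -0.51 ± 0.09 for DEX + TE against control (0.0731). Other Sod2 probe sets gave -0.35 without overlap of the arrays, and -0.16 and -0.19 with overlap. None of these passed the test.

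Glucocorticoid receptor targets were counted beside the FoxO targets. Of 18 tested, 1 rose (Fkbp5) and 2 fell (Ddit4 and Sgk1) in DEX against control, beside 38 and 44 of all 13691 genes. In DEX + TE against DEX 0 were called, beside 0 higher and 1 lower of all genes. In DEX + TE against control 1 rose (Fkbp5) and 2 fell (Ddit4 and Cebpb), beside 38 and 24 of all genes. Targets with an unadjusted p below 0.05 were 3 (16.7%) higher and 8 (44.4%) lower in DEX against control, beside 6.16% and 9.14% of all genes. They were 1 (5.56%) and 3 (16.7%) in DEX + TE against DEX, beside 5.97% and 1.49%, and 2 (11.1%) and 10 (55.6%) in DEX + TE against control, beside 7.69% and 6.76%. The median log2 fold change was -0.25, -0.24 and -0.65, beside -0.03, 0.04 and 0.02 over all genes. Of the 18 targets 14, 11 and 13 were lower by value. Thus 22.2%, 38.9% and 27.8% were higher by value, beside 45.6%, 57.4% and 53.4% of all genes. Ddit4 (Redd1), an inhibitor of mTORC1 signaling, read 5136, 4308 and 4470 in control mice and 390, 258 and 312 in DEX mice, a log2 fold change of -3.87 ± 0.26 (limma adjusted p = 0.00338). Cebpb, a transcription factor, had -0.95 ± 0.11 for DEX + TE against control (adjusted p = 0.0282). The count in DEX against control dropped to 1 without control replicate 2 or 3. The count in DEX + TE against control dropped to 1 without any 1 control or DEX + TE array or without DEX replicate 2. Klf15, a transcription factor that acts beside FoxO in muscle atrophy, had -0.67 ± 0.27 for DEX + TE against DEX (0.624).

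The other forkhead genes shared the DNA-binding domain without being FoxO members. Of 38 symbols, 33 had a probe set and 23 were tested. Limma called 0 of the 23 in each comparison, and the calls over all genes are given above. With an unadjusted p below 0.05, 2 (8.7%) were higher and 1 (4.35%) lower in DEX against control, beside 6.16% and 9.14% of all genes. It was 2 and 1 in DEX + TE against DEX, beside 5.97% and 1.49%, and 3 (13.0%) and 1 in DEX + TE against control, beside 7.69% and 6.76%. All 3 genes of the former and 3 of the 4 of the latter had a mean below 50 in a group compared, so these counts show no difference of the list. Foxd3 was one of them, at 29.0, 17.6 and 72.4 in control mice, 85.8, 60.9 and 71.7 in DEX mice and 134, 87.6 and 137 in DEX + TE mice (limma adjusted p = 0.184 for DEX + TE against control).

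The study's upstream analysis with IPA software listed 33 genes in a FoxO3 category for DEX against control, of which 29 were tested here. The software was given genes that had met the study's cut-offs for a change on these samples. Neither the direction of the list nor its counts and shares below are therefore independent evidence. In DEX against control 2 rose and 3 fell, beside 38 and 44 of all 13691 genes. In DEX + TE against DEX 0 were called, beside 0 higher and 1 lower of all genes. In DEX + TE against control 1 rose and 3 fell, beside 38 and 24 of all genes. At an unadjusted p below 0.05, 16 (55.2%) were higher and 9 (31.0%) lower in DEX against control, 4 (13.8%) and 3 (10.3%) in DEX + TE against DEX, and 13 (44.8%) and 6 (20.7%) in DEX + TE against control. Over all genes these shares were 6.16% and 9.14%, 5.97% and 1.49%, and 7.69% and 6.76%. Those that rose in DEX against control were Lcn2 and Mthfd2. Lcn2, an iron-binding lipocalin of the acute phase, read 9011 to 15040 in DEX mice and 11.9 to 58.6 in control mice (limma adjusted p = 0.00207). Its control mean, 35.2, was below the minimum. Lcn2 thus passed only through the groups where it was high and had to differ, so nothing is read from its p or its count among the rises. Mthfd2, a mitochondrial enzyme of folate metabolism, had a log2 fold change of 0.98 ± 0.12 (limma adjusted p = 0.0259). Those that fell were Ddit4, Nfkbia (-1.28 ± 0.17, 0.0324), the inhibitor of NF-kappaB, and Ccne2, a cyclin. In DEX + TE against control the 1 that rose was Lcn2, from which again nothing is read, and Ddit4, Nfkbia and Vcam1, a cell adhesion molecule, fell. Without 1 array the study's list had as few as 2 calls in each of the comparisons with control. The Foxo3 probe sets themselves had none.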

How the data were processed

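Per the labels, 9 arrays of tibialis anterior (250 ng RNA, GeneChip 3′IVT Express Kit) were deposited by the authors as 1 linear intensity per probe set, each array scaled to a 2% trimmed mean of 500. The paper names RMA, which gives log2 values, so another summary was deposited. The sources used here do not name its program, and RMA was not repeated. The 64 manufacturer control probe sets were removed from 45101. The log2 of the intensities was taken without an offset, and 29269 probe sets with a group mean of at least 50 were tested with limma 3.58.1 (R 4.3.3) on all 9 arrays with 3 group means and eBayes. Rank Product (all pairs of arrays, 100 permutations within arrays, the same thresholds on the false discovery rate) used Python 3.11.15 and numpy 2.4.6. Both were tested on simulated data. Symbols came from the platform annotation, and 34945 probe sets had 1 symbol, 932 several and 9160 none. For gene lists the brightest tested probe set per gene was used, for 13691 genes. The family members and all lists were chosen with earlier results of these data known. Some listed symbols were older names of a gene also listed (Sepp1 of Selenop, Emr1 of Adgre1 and Foxf1a of Foxf1). A symbol without a probe set was therefore not always a missing gene. Named genes were every FoxO probe set, Fbxo32, Trim63, up to 4 members per list and comparison (called first, otherwise by size of change) and the 3 nearest genes per member. Ccne2 and Fabp4, named after their values were seen, were outside the rule. The values of Selenop, Txnip and Adipor1 were added for their promoter motif and were outside it too. No scan or batch label was given. The number of arrays, 3 per group, limits the precision.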

Additional observations from a re-analysis of the deposited data

How the results depend on the processing

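The FoxO counts stayed at 0 under all 17 alternatives for limma and all 9 for Rank Product in each comparison (0 of 7 with a group mean of at least 100, which left out Foxo1 1456529_at and Foxo3 1450236_at), and the lowest adjusted p among 453 refitted FoxO values was 0.122. Of these values 22 changed sign, none of them called. With arrays centred on their medians, which moved the median of all probe sets in DEX + TE against DEX from 0.05 to -0.20, Foxo3 1434832_at became 0.05 (DEX against control), Foxo3 1434831_a_at -0.22 and 1450236_at -0.17 (DEX + TE against DEX) and Foxo4 1422149_at -0.11 (DEX + TE against control). Quantile normalization gave -0.21 for Foxo3 1450236_at and 0 for Foxo4 1422149_at in the same comparisons. Leaving out 1 array gave a range of -0.28 to 0.14 for Foxo1 1416981_at, -0.29 to 0.05 for 1416983_s_at, -0.30 to 0.12 for 1416982_at, -0.23 to 0.33 for Foxo3 1434831_a_at and -0.77 to 0.88 for 1450236_at (DEX + TE against DEX). It gave -0.21 to 0.06 for Foxo3 1434832_at and -1.10 to 0.19 for 1450236_at (DEX against control), and -1.09 to 0.22 for 1450236_at and -0.12 to 0.17 for Foxo4 1422149_at (DEX + TE against control).

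With the mean of all probe sets in place of the brightest, Foxo1 became 0.18, 0.07 and 0.25 and Foxo3 -0.04, -0.05 and -0.10 (DEX against control, DEX + TE against DEX, DEX + TE against control). The contrast of Foxo1 minus Foxo3 became 0.22, 0.12 and 0.35, that of Foxo1 minus Foxo4 in DEX + TE against control 0.27, and that of Foxo3 minus Foxo4 -0.23 (DEX against control) and -0.08 (DEX + TE against control). The Foxo1 mean includes 1456529_at (1.62, 0.64 and 2.26 in this order), while every bright Foxo1 probe set was negative in each comparison. That probe set passed the minimum signal only through the DEX-injected groups, so no direction is read from the Foxo1 mean. The Foxo3 mean includes the dim 1450236_at (-0.66, 0.09 and -0.57), which swung between arrays. The contrasts are built from the same means. Why the probe sets of a gene differed was not tested.

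The count of FoxO target genes called, 0 in the fit reported, became 5, 1 and 4 with a mean-variance trend (in DEX against control Fbxo32, Eif4ebp1, Cdkn1a, Bcl2l11 and Pck1, in DEX + TE against DEX Trim63), 3, 0 and 1 with a group mean of at least 100, 0, 0 and 1 with an offset of 16, and 1, 0 and 1 with the mean of all probe sets. Without 1 array it was 0 to 1 in DEX against control (Cdkn1a without DEX replicate 3) and in DEX + TE against control (Pck1 without control replicate 3, a gene that passed the minimum only through the DEX-injected groups). All pathway lists together held 7, 0 and 7 calls. These became 27, 1 and 21 with the trend, 19, 0 and 11 with a group mean of at least 100, 3, 0 and 2 with no filter, 2, 0 and 3 in a fit to 6 arrays, 11 and 11 in DEX against control with an offset of 16 or the mean of all probe sets, 4 there with median centring, and 2 to 7, 0 and 2 to 5 without 1 array. Calls over all probe sets, 147, 4 and 111, became 53, 0 and 44 with no filter, 341, 0 and 222 with a group mean of at least 100, 18, 0 and 55 in a fit to 6 arrays, 563 in DEX against control and 409 in DEX + TE against control with the trend, and 51 to 101, 0 to 3 and 31 to 87 without 1 array. The labels number the replicates 1 to 3 in every group, but arrays of the same number did not deviate together (correlation -0.0205 to 0.0482), so they share only a number. With the replicate block 41, 0 and 30 probe sets, 3, 0 and 2 listed genes and 0 of 9 FoxO probe sets were called.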
